A study of Mus musculus with 6 samples.

Results

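The 10 genes described here encode inhibitors of mitogen-activated protein kinase (MAPK) signalling: the dual-specificity phosphatases Dusp1, Dusp2, Dusp4, Dusp5, Dusp6, Dusp7, Dusp10 and Dusp16 and the Sprouty proteins Spry1 and Spry2. They were chosen by name, as the array rows annotated with exactly 1 of these symbols, and all 10 were measured among 19935 genes. The samples were mouse CD4+CD62L- T cells, called resting in the labels, sorted from lymph nodes without treatment. Dicer KO cells (3 arrays) came from animals with loxP-flanked Dicer alleles and a Cre transgene driven by the Cd4 promoter, and Dicer WT cells (3 arrays) from animals with the same floxed alleles and no Cre. Dicer cuts microRNA precursors into mature microRNAs. Ages were not given, and p-values measure the spread between these samples.

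MAPK cascades carry signals from the T cell receptor and from cytokine and stress receptors through the kinases ERK, JNK and p38. Typical dual-specificity phosphatases, also called MAPK phosphatases, remove the phosphates from the threonine and tyrosine that activate these kinases, and many are themselves induced by the pathway they shut off. Sprouty proteins act upstream, between receptors and the RAS and RAF steps. In mouse T cells, microRNA miR-181a is known to repress Dusp5 and Dusp6 among other phosphatases, and in mouse heart Spry1 is a known target of miR-21.

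The mature sequences of these microRNAs are shown because they are products of the enzyme deleted here, with the seed (bases 2 to 8) in capitals, from RefSeq (GRCm38.p6).
miR-181a-5p: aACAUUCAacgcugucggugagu
miR-181b-5p: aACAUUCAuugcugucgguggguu
miR-181c-5p: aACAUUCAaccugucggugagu
miR-181d-5p: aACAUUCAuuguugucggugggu
miR-21a-5p: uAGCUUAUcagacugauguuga
The 4 miR-181 sequences share 1 seed, ACAUUCA, and miR-21a-5p has another. Target sites in the members' transcripts were not analysed here. Rows that read hairpin or primary transcripts of these microRNAs are described at the end; they do not read the mature form.

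Promoter windows of 3 members are shown, those of the gene with the largest rise (Dusp10), the gene with the most negative difference (Dusp5) and the gene with the widest spread between arrays (Dusp1). Each holds the 250 bases before the annotated start, 5′ to 3′ on the gene's strand (GRCm38.p6). Capitals mark the CRE core TGACG and the CArG box, the binding motif of serum response factor, on either strand.
Dusp10, chr1:184034131-184034380, plus strand: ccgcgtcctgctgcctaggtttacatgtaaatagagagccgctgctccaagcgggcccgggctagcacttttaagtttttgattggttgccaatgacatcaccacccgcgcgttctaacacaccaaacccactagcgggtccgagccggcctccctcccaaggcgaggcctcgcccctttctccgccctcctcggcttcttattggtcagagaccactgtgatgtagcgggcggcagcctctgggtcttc
Dusp5, chr19:53528895-53529144, plus strand: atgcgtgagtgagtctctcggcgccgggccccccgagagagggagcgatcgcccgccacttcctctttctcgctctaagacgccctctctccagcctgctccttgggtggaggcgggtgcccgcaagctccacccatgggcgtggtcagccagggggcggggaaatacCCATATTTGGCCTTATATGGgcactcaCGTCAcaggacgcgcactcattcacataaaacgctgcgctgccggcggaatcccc
Dusp1, chr17:26508473-26508722, minus strand: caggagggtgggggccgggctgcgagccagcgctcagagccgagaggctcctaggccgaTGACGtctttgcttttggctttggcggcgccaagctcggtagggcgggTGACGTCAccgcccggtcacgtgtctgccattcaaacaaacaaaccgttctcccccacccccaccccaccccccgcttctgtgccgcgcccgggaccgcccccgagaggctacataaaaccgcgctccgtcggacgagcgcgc
Dusp5 held 2 adjoining CArG boxes, 82 to 63 bases before the start, and a CArG box was found in 1.40% of 27025 windows of the same length. Dusp1 held the full palindromic CRE, TGACGTCA, 143 to 136 bases before the start, which overlaps 2 matches of the core and occurs in 1.62% of windows. The core TGACG was present in Dusp1, Dusp5 and Dusp16 of the 9 members in the table and in 17.9% of all windows. Of the other motifs searched, AP-1 (TGANTCA, 6.87% of windows) and the ETS motif CCGGAA (12.2%) had no match in the 9 members' windows, while the GC box GGGCGG (32.9%) was found in 6 of 9. The Dusp10 window held GC boxes alone of these motifs. A match describes the letters in this window and does not show that a factor binds there. Dusp4 is named only.

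Of the 10 genes, Dusp10 and Dusp4 were higher in Dicer KO cells and 0 were lower past the threshold of limma's adjusted p. The background over all 19935 genes was 5.94% called higher, 2.79% called lower and 8.73% called in either direction. At an unadjusted p under 0.05, 4 of the 10 genes passed (Dusp4, Dusp5, Dusp6 and Dusp10), where 21.5% of all genes did. For the same 4 genes, the 2 sets of 3 arrays were apart, with no overlap, which was the case for 26.2% of all genes. The median difference of the 10 genes was 0.06, against -0.01 for all genes, on the log2 scale. The values below are deposited log2 values centred on the median of the gene's 6 arrays, so the middle pair of arrays of each gene mirror each other around 0.

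**Figure D1:**
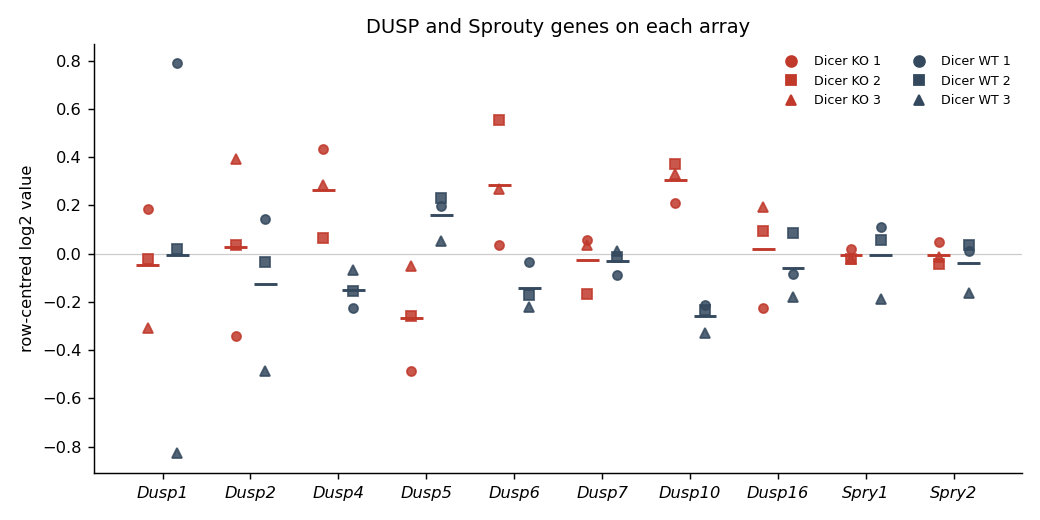
Row-centred log2 values (vertical axis) of the 10 genes (horizontal axis) on each array; symbols are arrays, short lines are the means of 3 arrays, with Dicer KO in red to the left of Dicer WT in grey-blue. The 3 Dicer KO arrays lie above the 3 Dicer WT arrays for Dusp4, Dusp6 and Dusp10 and below them for Dusp5, and Dusp1 has the widest spread.

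The phosphatases that act mainly on JNK and p38 are Dusp10, also called MKP-5, and Dusp16, also called MKP-7. Dusp10 read 0.21, 0.37 and 0.33 on Dicer KO 1 to 3, against -0.21, -0.24 and -0.33 on Dicer WT 1 to 3. The groups were separated by 0.42, more than the range within either genotype (0.16 in Dicer KO and 0.12 in Dicer WT). Dusp10 was 1.48-fold higher in Dicer KO, with a log2 difference of 0.56 ± 0.06 (SE of the fit on 3 arrays each, limma adjusted p = 0.00328). Its call held with any 1 array left out, with adjusted p between 0.00671 and 0.0216. Its spread between arrays of a genotype was ordinary, larger than that of 40.8% of genes.

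Dusp16, the other JNK phosphatase, did not pass. It read -0.23, 0.10 and 0.19 on the Dicer KO arrays, against -0.09, 0.09 and -0.18 on the Dicer WT arrays. The groups overlapped, and the difference was 0.08 ± 0.12 (adjusted p = 0.794, 95% interval -0.20 to 0.36). The interval leaves room for a difference in either direction. The difference between Dusp10 and Dusp16 in their response was not tested.

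Among the nuclear, inducible phosphatases, Dusp4 was higher in Dicer KO, Dusp5 missed the threshold in the opposite direction, and Dusp1 and Dusp2 spread widely within each genotype. Dusp4, or MKP-2, dephosphorylates ERK and JNK in the nucleus. It read 0.44, 0.07 and 0.29 on Dicer KO 1 to 3, against -0.23, -0.15 and -0.07 on Dicer WT 1 to 3. The groups did not overlap, with the low Dicer KO 2 array 0.13 above the highest Dicer WT array. Dusp4 was 1.33-fold higher (log2 0.41 ± 0.10 SE, adjusted p = 0.0455). The call held without Dicer KO 2 (adjusted p = 0.0288) and was lost without any other array: 0.0931 without Dicer KO 1, 0.108 without Dicer KO 3, 0.146 when Dicer WT 1 was dropped, 0.126 for Dicer WT 2 and 0.0567 for Dicer WT 3.

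Dusp5 is a nuclear phosphatase selective for ERK, which it also anchors in the nucleus. It read -0.49, -0.26 and -0.05 on the Dicer KO arrays, against 0.20, 0.23 and 0.05 on the Dicer WT arrays. All 3 Dicer KO arrays were below all 3 Dicer WT arrays, with Dicer KO 3 and Dicer WT 3 close to each other. The difference was -0.42 ± 0.11 and did not pass (adjusted p = 0.0626). It passed with array weights (adjusted p = 0.0192). Without Dicer KO 3 it was -0.53 with an adjusted p of 0.0266, and the adjusted p without any other array was above the threshold, up to 0.181.

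Dusp1, or MKP-1, is an immediate early gene whose product acts on p38, JNK and ERK. It read 0.18, -0.02 and -0.31 on the Dicer KO arrays, against 0.79, 0.02 and -0.83 on the Dicer WT arrays. The Dicer KO arrays lay inside the span of the Dicer WT arrays, which was 1.62 on the log2 scale. The spread of Dusp1 within genotypes was larger than that of 99.9% of genes. Its difference of -0.04 ± 0.37 (adjusted p = 0.973) had a 95% interval of -0.91 to 0.82, which leaves room for a large change in either direction. Without Dicer WT 1 the difference was 0.36 (adjusted p = 0.572), and leaving out other arrays gave values down to -0.45.

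Dusp2, or PAC-1, takes its older name from its induction in activated cells. It read -0.34, 0.03 and 0.39 on the Dicer KO arrays, against 0.14, -0.03 and -0.49 on the Dicer WT arrays. The arrays of both genotypes interleaved. Its within-genotype spread exceeded that of 99.0% of genes, and its difference was 0.15 ± 0.22 (adjusted p = 0.779).

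The cytoplasmic phosphatases selective for ERK are Dusp6, or MKP-3, and Dusp7. Dusp6 read 0.04, 0.55 and 0.27 on the Dicer KO arrays, against -0.04, -0.17 and -0.22 on the Dicer WT arrays. The 3 Dicer KO arrays were above the 3 Dicer WT arrays by a gap of 0.07, the narrowest of the 4 genes whose arrays did not overlap. The difference of 0.43 ± 0.13 did not pass (adjusted p = 0.0922). Without Dicer KO 1, the Dicer KO array next to the Dicer WT arrays, it was 0.55 with an adjusted p of 0.0323, and with array weights the adjusted p was 0.046. Without each of the other arrays it lay above the threshold, up to 0.222. Dusp5 and Dusp6, the pair known as miR-181a targets, had point differences of opposite sign, and neither passed.

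Dusp7 read 0.06, -0.17 and 0.03 on the Dicer KO arrays, against -0.09, -0.01 and 0.01 on the Dicer WT arrays. The groups overlapped and the difference was 0.0048 ± 0.07 (adjusted p = 0.984), with a 95% interval of -0.16 to 0.17.

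**Figure D2:**
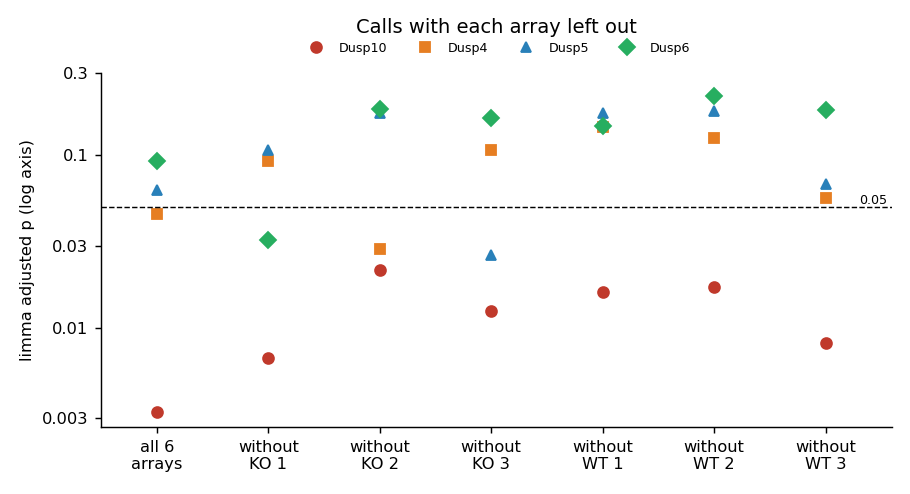
Limma adjusted p on a log axis for Dusp10, Dusp4, Dusp5 and Dusp6 with all 6 arrays and with each array left out (horizontal axis); the dashed line is the threshold of 0.05. Dusp10 stays below the line in all 7 fits, while Dusp4, Dusp5 and Dusp6 cross it depending on the array left out.

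The Sprouty genes did not pass. Spry1, which is induced in T cells by receptor signalling and modulates it, read 0.02, -0.02 and -0.02 on the Dicer KO arrays, against 0.11, 0.06 and -0.19 on the Dicer WT arrays. Spry2, a related inhibitor of growth factor receptor signalling, read 0.05, -0.04 and -0.01 on the Dicer KO arrays, against 0.01, 0.04 and -0.16 on the Dicer WT arrays. For both genes, the Dicer KO arrays fell within or close to the span of the Dicer WT arrays, and Dicer WT 3 was the lowest array. The difference was -0.00096 ± 0.08 for Spry1 (adjusted p = 0.998, 95% interval -0.19 to 0.19). For Spry2 it was 0.03 ± 0.07 (adjusted p = 0.853, 95% interval -0.12 to 0.19). The bounds of these intervals are smaller in size than the differences of Dusp4, Dusp5, Dusp6 and Dusp10.

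Several properties of the samples bear on these values. The row of Dicer1 read 0.21, -0.02 and -0.09 on the Dicer KO arrays, against 0.12, 0.02 and -0.10 on the Dicer WT arrays (difference 0.02 ± 0.09, adjusted p = 0.949); the exons it covers are unknown here, so it checks nothing about the deletion. Row centring left no levels, so the presence of T cell markers could not be checked. Of 7 T cell markers, Cd4 rose (0.67 ± 0.07, adjusted p = 0.00328) and the others did not pass. At an unadjusted p under 0.05 there were 3 of 7, where 21.5% of all genes passed. The median of 8 B cell markers was 0.11, 0.06 and 0.12 on Dicer KO 1 to 3, against -0.57, -0.01 and -0.24 on Dicer WT 1 to 3, with all 8 differences above 0 and a median difference of 0.36. At an unadjusted p under 0.05 there were 6 of 8, and 1 (Bank1) passed, though not without Dicer KO 2 (adjusted p = 0.0515). Of 2 measured markers of naive T cells, Ccr7 rose (0.64 ± 0.07) and Lef1 did not pass (0.31 ± 0.10, adjusted p = 0.103). The 4 markers of activated or memory T cells (Cd44, Il2ra, Il2rb and Cd69) all had differences above 0, with a median of 0.34. The arrays of 3 of them did not overlap, 2 had an unadjusted p under 0.05, and Cd69 passed. Over all genes these shares were 26.2% without overlap and 21.5% at the unadjusted p. Il2ra, 1 of the 3 without overlap, differed by 0.07 ± 0.05. The part of these genes' cells in the differences of Dusp10 and Dusp4 was not tested. Without Dicer WT 1 and Dicer WT 3, the Dicer WT arrays with the lowest B cell medians, Dusp10 differed by 0.54 and Dusp4 by 0.42. That fit was added after seeing the data and leaves a lone Dicer WT array, so it does not test the part of B cells. Of 10 myeloid markers, Lyz2 passed, though not without Dicer KO 2 (adjusted p = 0.0699) or Dicer WT 1 (0.0654), with list medians of -0.03 to 0.07 in Dicer KO and -0.04 to 0.03 in Dicer WT. The 2 CD8 genes and 4 NK markers had 0 called by limma, with 1 gene of each at an unadjusted p under 0.05. These were Cd8b1 (-0.26 ± 0.07) and Klrd1 (0.87 ± 0.30), named after their values were seen. Klrd1 read 1.27, 0.93 and -0.01 on Dicer KO 1 to 3, against -0.19, -0.23 and 0.01 on Dicer WT 1 to 3. All 4 NK markers had differences above 0, and the 2 CD8 genes had differences below 0. In RNA of a sorted population, fewer cells of a type and less RNA per cell cannot be told apart.

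The spread of Dusp1 and Dusp2 was set beside that of other immediate early genes, which respond to ERK and stress signals within minutes. Fos, Fosb and Jun are named here after their values were seen. Fos read 0.14, -0.36 and -0.32 on the Dicer KO arrays, against 0.62, 0.19 and -0.14 on the Dicer WT arrays, and Fosb read 0.01, -0.34 and -0.12 on the Dicer KO arrays, against 0.76, 0.14 and -0.01 on the Dicer WT arrays. Within each genotype, array 1 was the highest for Dusp1, Fos and Fosb. Jun was also highest on array 1 of each genotype, with 0.97, 0.01 and -0.01 in Dicer KO, against 0.17, -0.28 and -0.17 in Dicer WT. Of the 29 ERK-responsive genes set beside Dusp1, 4 (Fos, Fosb, Jun and Jund) were highest on array 1 in both genotypes, so most of the list did not share this order. Array 1 was the highest for 5 of the 29 in Dicer KO and for 14 in Dicer WT. The share of all genes with this order was not counted. Egr1 and Nr4a1, for example, were lowest on array 1 among the Dicer KO arrays. Dusp2 had another order, with Dicer KO 1 its lowest Dicer KO array and Dicer WT 1 its highest Dicer WT array.

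**Figure D3:**
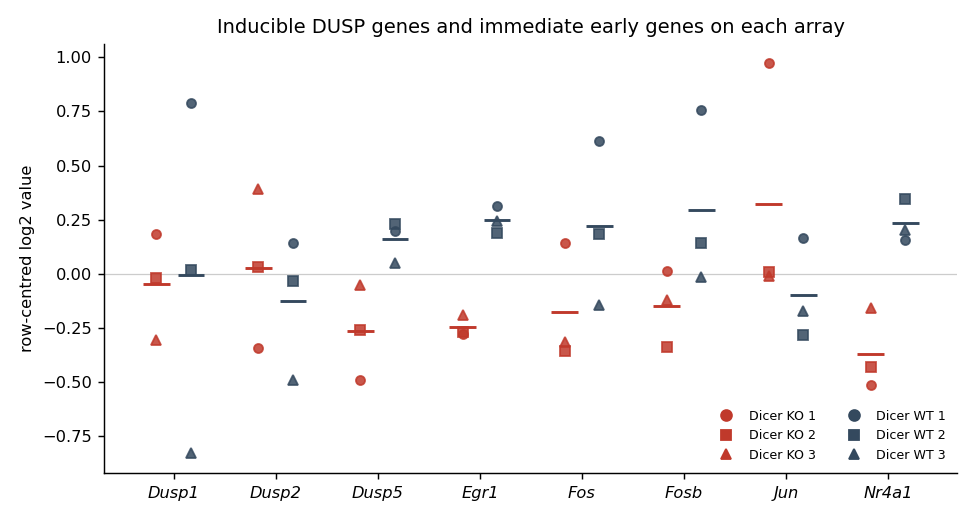
Row-centred log2 values (vertical axis) of Dusp1, Dusp2 and Dusp5 and of 5 immediate early genes (horizontal axis) on each array; symbols are arrays and short lines are means of 3, with Dicer KO in red to the left of Dicer WT in grey-blue. Egr1, Nr4a1 and Dusp5 have Dicer KO arrays below all Dicer WT arrays, while those of Dusp1, Dusp2, Fos, Fosb and Jun overlap.

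The list of 29 ERK-responsive genes, which also holds the transcription factor genes Srf, Elk1 and Elk4, moved in both directions. In Dicer KO, 3 rose (Btg2, Elk4 and Cd69) and 3 fell (Egr1, Nr4a1 and Srf), with a median difference of -0.04. Of all genes, 5.94% were called higher and 2.79% lower. Egr1, an immediate early transcription factor, read -0.28, -0.27 and -0.19 in Dicer KO, against 0.32, 0.19 and 0.24 in Dicer WT, and fell by 0.49 ± 0.06 (adjusted p = 0.00329). Nr4a1, an orphan nuclear receptor induced by T cell receptor signals, fell by 0.60 ± 0.10 (adjusted p = 0.0134). Nr4a1 lost its call without Dicer KO 2 (adjusted p = 0.066) or Dicer WT 2 (0.0508). Like these, Dusp5 was lower on every Dicer KO array than on any Dicer WT array, but its own difference did not pass. Btg2, an antiproliferative gene, rose by 0.69 ± 0.06 and Elk4, an ETS factor that partners serum response factor, by 0.34 ± 0.05. Cd69, an early activation marker, and Srf, the gene of serum response factor, are named after their values were seen. Cd69 rose by 0.63 ± 0.11 (adjusted p = 0.0146) and lost its call without Dicer KO 2 (0.0683). Srf fell by 0.33 ± 0.07 (adjusted p = 0.0411), and dropping any array but Dicer WT 1 ended its call (adjusted p up to 0.126). The count of 6 called genes was 3 without Dicer KO 2, a fit that called 729 of all genes, beside 1741 with all 6 arrays.

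The other members of the phosphatase and Sprouty families are set beside all genes, of which 8.73% were called in either direction. Their lists hold 7 and 15 genes, and the counts were not tested against that share. Of 7 other typical phosphatase, Sprouty and Spred genes, 0 were called by limma and 1 had an unadjusted p under 0.05, with a median difference of 0.01. That gene was Spred2, an inhibitor of RAF activation, at 0.29 ± 0.10 (adjusted p = 0.121). Spred1, which recruits the RAS inhibitor neurofibromin, differed by 0.18 ± 0.10 (adjusted p = 0.408) and was called without Dicer KO 1 (0.30, adjusted p = 0.044). Of 15 atypical dual-specificity phosphatase genes, 1 rose and 0 fell, with a median of -0.01. Dusp11, which acts on RNA 5′ ends and not on kinases, rose by 0.35 ± 0.08 (adjusted p = 0.0332), and its call held only without Dicer WT 2 among the fits that left out 1 array, with adjusted p of 0.0842, 0.128 and 0.053 without Dicer KO 1, 2 and 3 and 0.116 and 0.0746 without Dicer WT 1 and 3.

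**Figure D4:**
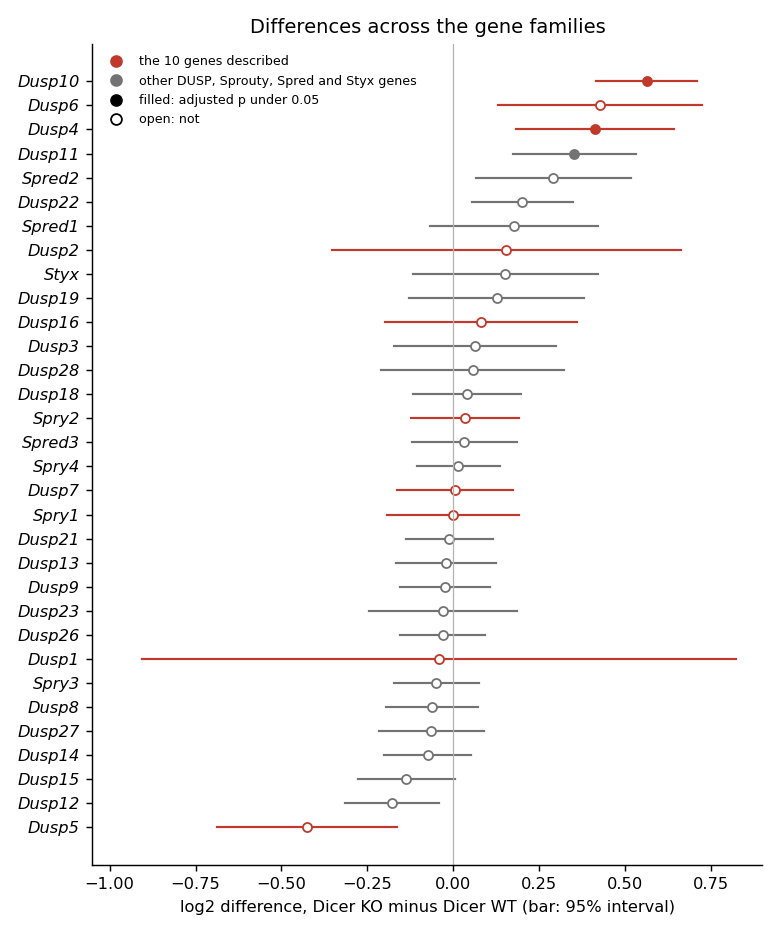
Log2 differences of Dicer KO minus Dicer WT with 95% intervals (horizontal axis) for each measured DUSP, Sprouty, Spred and Styx gene (vertical axis); red marks the 10 genes described and filled points have a limma adjusted p under 0.05. Dusp10, Dusp4 and Dusp11 are the filled points, and Dusp1 has the widest interval.

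The pathways of the kinases that these phosphatases act on included genes higher in Dicer KO. Of 23 JNK and p38 cascade kinase genes, 8 rose and 0 fell, with a median difference of 0.11. Over all genes, 5.94% were called higher and 2.79% lower. The share was larger with the filter to genes of a higher level class, described with the processing. It called 1018 of the 3278 genes it keeps, 837 of them higher, and 3 of 7 genes of this list. The kinase Mknk2, an effector of ERK and p38 that phosphorylates eIF4E, read 0.34, 0.35 and 0.39 in Dicer KO, against -0.56, -0.60 and -0.34 in Dicer WT, and rose by 0.86 ± 0.08 (adjusted p = 0.00158). Map3k8, also called Tpl2, rose by 0.91 ± 0.12. The stress kinase Map3k5, also called ASK1, rose by 0.52 ± 0.08 and activates the JNK and p38 branch on which Dusp10 acts. Map2k4, a direct activator of JNK, rose by 0.52 ± 0.08 and lost its call without Dicer KO 2 (adjusted p = 0.0612). Of the 7 genes of the JNK and p38 kinases themselves (Mapk8 to Mapk14), the class of kinase on which Dusp10 acts, 0 were called by limma and 1 had an unadjusted p under 0.05, with differences of -0.45 to 0.12. That gene was Mapk11, or p38 beta, which read -0.10, -0.14 and -0.27 in Dicer KO, against 0.10, 0.19 and 0.54 in Dicer WT. Its arrays did not overlap, and its difference of -0.45 ± 0.12 (adjusted p = 0.0602) was past the threshold only with array weights (-0.36, adjusted p = 0.0459). Mapk8, or JNK1, differed by 0.05 ± 0.09 (adjusted p = 0.838) and Mapk14, or p38 alpha, by -0.03 ± 0.07 (adjusted p = 0.883), with signs that changed in other fits. These 3 genes are named after their values were seen. The count of 8 was 3 without Dicer KO 2, 5 without Dicer KO 3, and 4 when either Dicer WT 1 or Dicer WT 2 was dropped. Calls over all genes fell as well, from 1741 to 729, 1416, 849 and 1050 in these 4 fits.

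Of 11 ERK cascade genes, 5 rose and 0 fell, with a median of 0.26. The shares over all genes were 5.94% called higher and 2.79% called lower. With the filter to the higher level class, 4 of 9 genes of the list were called, beside 1018 of 3278 genes in all. The scaffold genes Ksr1 (0.50 ± 0.06, adjusted p = 0.00402) and Iqgap1 (0.52 ± 0.06, adjusted p = 0.00425) and the kinase genes Rps6ka3 (0.67 ± 0.11) and Map2k1, or MEK1 (0.35 ± 0.06), led by p-value. Rps6ka3 lost its call without Dicer KO 2 (adjusted p = 0.0621), and Map2k1 without Dicer KO 2 (0.0683), Dicer WT 1 (0.0602) or Dicer WT 2 (0.0593). The count of 5 was 2 when Dicer KO 2 was dropped, and 3 when Dicer WT 1 or Dicer WT 2 was. In the same fits 729, 849 and 1050 of all genes were called, beside 1741 with all 6 arrays.

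Of 13 RAS genes and RAS activators, 3 rose and 0 fell, with a median of 0.16. For this list and the RAS GAP list, the all-gene shares were 5.94% called higher and 2.79% called lower. The filter to the higher level class called 3 of 5 and 2 of 4 genes of the 2 lists, beside 1018 of 3278 genes in all. Rasgrp1, the activator that links the T cell receptor to RAS, rose by 0.80 ± 0.10 (adjusted p = 0.00554) and the RAS-related gene Rras2 by 0.62 ± 0.08 (adjusted p = 0.00496). Nras rose by 0.25 ± 0.04 and lost its call without Dicer KO 1 (adjusted p = 0.0503), Dicer KO 2 (0.0668), Dicer WT 1 (0.0625) or Dicer WT 2 (0.0592), and 5 genes were called without Dicer WT 3. Of 8 RAS GAP genes, whose products switch RAS off, Rasa3 (0.27 ± 0.05, adjusted p = 0.025) and Rasal3 (0.24 ± 0.06, adjusted p = 0.0485) rose and 0 fell, with a median of 0.04. Dropping any array but Dicer KO 3 left 0 of the 8 called (adjusted p 0.0578 to 0.105 for Rasa3 and 0.0974 to 0.165 for Rasal3). Those fits called 729 to 1597 of all genes, beside 1741 with all 6 arrays. Rasal3 also lost its call with a replicate block (adjusted p = 0.0581) and with a robust variance prior (0.0501). The same held with array medians set to 0 (0.0507, and 0.0946 within level classes).

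**Figure D5:**
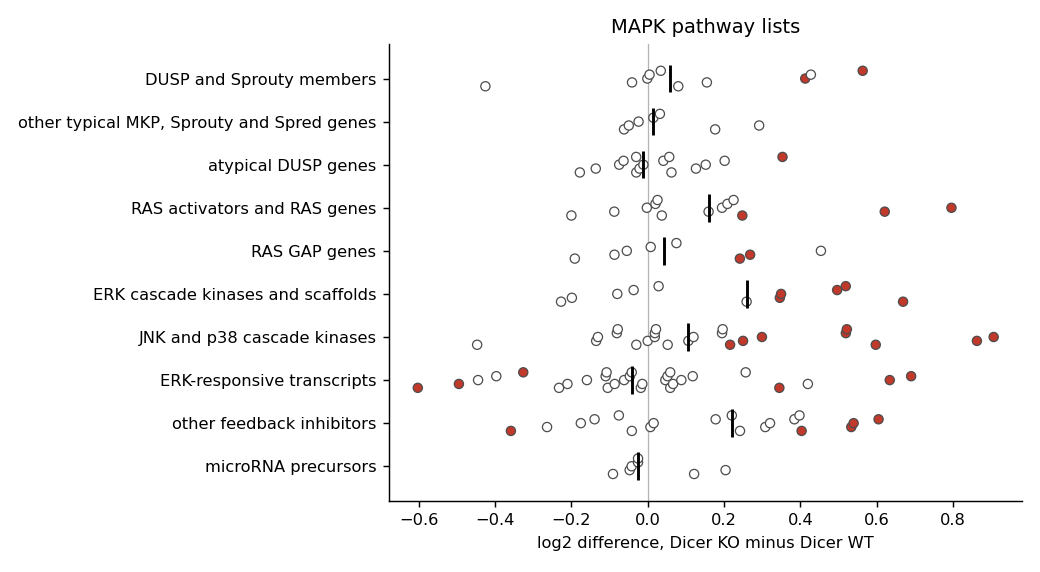
Log2 differences of Dicer KO minus Dicer WT (horizontal axis) for single genes in each list (vertical axis); filled points have a limma adjusted p under 0.05 and vertical bars are list medians. The 10 DUSP and Sprouty genes span -0.42 to 0.56, and the JNK and p38 cascade kinase list reaches 0.91, at Map3k8.

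Other feedback inhibitors of receptor signalling had 4 of 19 genes higher and 1 lower, with a median of 0.22. Among all genes, 5.94% were called higher and 2.79% lower. Ubash3a, which restrains T cell receptor signalling, rose by 0.54 ± 0.06 (adjusted p = 0.00321). The phosphatase subunit genes Ppp2ca (0.40 ± 0.07) and Ppp2cb (0.60 ± 0.11) rose and the adaptor gene Lax1 fell by 0.36 ± 0.07. These 3 lost their calls when 1 array was left out: Ppp2ca and Ppp2cb without Dicer KO 2, Dicer WT 1 or Dicer WT 2 (adjusted p 0.0508 to 0.0664), and Lax1 without Dicer KO 2, Dicer KO 3, Dicer WT 2 or Dicer WT 3 (0.0554 to 0.105). The count of 5 was 1 without Dicer KO 2, 2 without Dicer WT 1 and 3 without Dicer WT 2, and it was 8 with array weights. The count of 1741 over all genes moved too, to 729, 849, 1050 and 2537 in these fits.

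Of 7 measured rows of miR-181 and miR-27 precursor genes, 0 were called by limma and 1 had an unadjusted p under 0.05, with a median of -0.03. That row was Mir27a (0.20 ± 0.08, adjusted p = 0.178). Mir181b-2 read 0.10, 0.04 and 0.02 in Dicer KO, against -0.02, -0.06 and -0.13 in Dicer WT, a difference of 0.12 ± 0.05 (adjusted p = 0.252). These were the 2 rows with a difference above 0. The other 5, which include the miR-181a precursors, had differences below 0, down to -0.09. All 7 rows read precursors, and the level of the mature microRNAs whose seeds are shown above was not measured. Mir21a has no value here.

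The genes most like Dusp10 across the 6 arrays, by Pearson correlation over 18610 named genes, were Stam2 (r = 0.998), Zbtb14 (r = 0.998) and Elf2 (r = 0.997). They differed between genotypes by 0.64 ± 0.07, 0.27 ± 0.05 and 0.48 ± 0.05, and the call of Zbtb14 was lost when any of 4 arrays was dropped (adjusted p up to 0.0853). Those most like Dusp5 were Hdgfl2 (r = 0.995), Nova2 (r = 0.995) and Lrp8 (r = 0.994), with differences of -0.14 ± 0.05, -0.19 ± 0.06 and -0.25 ± 0.09, none of which passed (adjusted p 0.133 to 0.171). These correlations describe 6 arrays that share the genotype difference and are given without a test.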

How the data were processed

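Total RNA of sorted CD4+CD62L- lymph node T cells was amplified, labelled with biotin and hybridised to 1-colour Affymetrix MoGene 1.0 ST arrays, per the labels' protocols. The authors deposited 1 table of log values, read here as log2, for 28815 rows and 6 arrays. The submitters' processing notes name MAS5 without a version or a role; normalization and log base are not stated. In the deposited values the 6 arrays of every row have a median of 0, so differences between arrays were measured and levels were not. Nothing in the labels says whether each sample came from 1 animal.

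Gene names came from GEO's platform annotation and the RefSeq gene table of GRCm38.p6. Of the rows, 21780 had 1 symbol, 1605 with several symbols and 5430 unnamed ones were left out, and the rows of a gene were averaged, which gave 19935 genes. Each of the 10 genes described lies on 1 row. Dicer KO was tested against Dicer WT by the moderated test of limma 3.58.1 (R 4.3.3; lmFit, then eBayes) on 3 arrays each. P-values were adjusted by Benjamini-Hochberg over the 19935 genes, and the threshold was an adjusted p of 0.05. Differences are Dicer KO minus Dicer WT with the SE of that fit. The procedure was tested on simulated data. It called 63% of 100 genes changed by 0.5 on the log2 scale and 92% of 50 genes changed by 1. It also called 10 unchanged genes.

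The genes and the pathway lists were chosen with earlier results of these data known. Named genes are Dicer1, the 10 genes, and from each list up to 4 genes past the threshold by lowest p, or 2 by lowest p where none passed; others are marked. For the largest rise and the most negative difference, the 3 named genes of most similar pattern are also given. Alternatives were a replicate block, each array left out, array weights, a robust variance prior, each row by itself, 2 other centrings of the arrays, and a filter to genes of a higher level class, read from the coarser binary step of the stored numbers. A fit without Dicer WT 1 and Dicer WT 3 was added after seeing the data. Promoter and microRNA sequences are from RefSeq tables of GRCm38.p6.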

Additional observations from a re-analysis of the deposited data

How the results depend on the processing

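Among the 10 genes, 2 were called in the fits with a replicate block, a robust variance prior, each row by itself, array medians set to 0, and array medians set to 0 within level classes. Array weights called 4 (Dusp6 and Dusp5 in addition). The filter to genes of the higher level class called 1, because Dusp4 is not among the 3 members it keeps. It called 1018 of the 3278 genes it keeps in all, 837 of them higher in Dicer KO, and 22 of 46 genes of the pathway lists. With 1 array left out, 1 to 2 members, 729 to 1597 of all genes and 11 to 24 genes of the pathway lists were called, beside 1741 and 30 with all 6 arrays. Without Dicer WT 1 and Dicer WT 3, 0 members, 213 of all genes and 2 genes of the lists were called, over a lone Dicer WT array assumed to vary like the Dicer KO arrays. The median difference of the members was -0.03 to 0.18 in these fits, and the sign of Dusp4, Dusp5, Dusp6 and Dusp10 did not change in any of them.

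Differences near 0 changed sign. With 1 array left out, Dusp1 ranged from -0.452 to 0.357, Dusp2 from -0.0267 to 0.339, Dusp7 from -0.0356 to 0.0751, Dusp16 from -0.00591 to 0.203, Spry1 from -0.0911 to 0.0584, Spry2 from -0.028 to 0.0712 and Dicer1 from -0.0691 to 0.080. Array weights gave -0.0293 for Dusp7, -0.00918 for Spry2 and -0.0286 for Dicer1. Spry1 was 0.00248 with array medians set to 0 and 0.0126 with medians set to 0 within level classes, where Dusp7 was -0.0433 and Dicer1 -0.029. Without Dicer WT 1 and Dicer WT 3, Dusp7 was -0.0129, Dusp16 -0.0642 and Spry2 -0.0398. Mapk8 ranged from -0.0289 to 0.123 and Mapk14 from -0.0734 to 0.0385 with 1 array left out; Mapk14 was 0.00663 with array weights, and without Dicer WT 1 and Dicer WT 3 they were -0.0882 and 0.0572. The cause was not tested.

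Whether the replicate numbers pair the samples is not settled by these values. The correlation of same-numbered deviations was 0.274, -0.0763 and 0.3 for numbers 1, 2 and 3. For arrays of different number it ran from -0.366 (Dicer KO 1 with Dicer WT 3) to 0.227 (Dicer KO 1 with Dicer WT 2). With the replicate block, 2 members, 2063 genes and 32 genes of the lists were called, among them 6 of the JNK and p38 cascade list and 8 of the other feedback inhibitors, beside 8 and 5 without it. With the block, Fos was called (-0.40, adjusted p = 0.0393) and Rasal3 was not (0.24, adjusted p = 0.0581). With 3 arrays per genotype, the number of arrays limits the precision, and signal over background is not known here.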
